A study of Mus musculus with 12 samples.

Results

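The 4 transcripts described here belong to the imprinted Dlk1-Meg3 domain of mouse chromosome 12: Meg3, Rian, Mirg and Dlk1. They were followed through wild-type and Smad-deficient embryonic stem (ES) cells and their embryoid bodies. The members were chosen by name: they are the 4 of 32285 genes in the count table that carry these symbols, and all 4 were among the 18693 genes tested and in the table of FPKM values. RNA sequencing had been done on 12 libraries labelled as E14Tg2a.IV mouse ES cells, 2 in each of 6 groups. The groups were wild type (WT), a double knockout of Smad2 and Smad3 (S2/3DKO) and a knockout of Smad4 (S4KO), each at day 0, undifferentiated, and at day 4, as embryoid bodies. The 3 genotypes are all labelled with the same line, which carries no other stated allele or agent, and the number of clones behind a knockout was not given in the sources used here. Nodal, activin and TGF-beta act through Smad2 and Smad3, whereas Smad4 serves both that branch and the BMP branch of the pathway. Whether the 2 replicates of a group came from separate cultures was not stated in the labels, and each p-value therefore refers to the spread between these samples, which may be technical.

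In this domain the paternal chromosome transcribes the protein-coding genes Dlk1, Rtl1 and Dio3, and the maternal chromosome transcribes long RNAs in the opposite imprint: Meg3, Rian, which hosts small nucleolar RNAs, and Mirg, which hosts microRNAs. A differentially methylated region between Dlk1 and Meg3 sets which chromosome is used, and the zinc finger protein ZFP57 is among the proteins that keep its methylation after fertilisation. ES cells are known to transcribe the maternal RNAs, and their silencing is known from some induced pluripotent stem cell lines. Dlk1 encodes a membrane protein related to Notch ligands, and Dio3 an enzyme that inactivates thyroid hormone.

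On build mm10, chromosome 12, plus strand, Dlk1 (ENSMUSG00000040856, protein coding) spans 109452823 to 109463336. Meg3 (ENSMUSG00000021268, long intergenic non-coding RNA) spans 109541001 to 109571726. Rian (ENSMUSG00000097451, processed transcript) spans 109603940 to 109661716, and Mirg (ENSMUSG00000097391, long intergenic non-coding RNA) 109729764 to 109749460. The union of exons in the annotation was 18089 bases for Meg3 and 18234 for Rian, longer than in 99.0% and 99.1% of the genes tested. The exons of Rian had a GC content of 40.1%, above only 4.30% of the genes tested, whereas those of Meg3 (51.9%), Mirg (52.0%) and Dlk1 (55.0%) lay nearer the middle.

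The start regions of Meg3, of Dlk1 and of the distal paternal gene Dio3 are shown as starts of a maternal RNA and of the paternal genes at the proximal and distal ends of the domain. Each window runs from 250 bases before to 50 after the start of transcription, read 5′ to 3′ from RefSeq on GRCm38.p6. The RefSeq starts of Dio3, Mirg and Rian lie inside these genes' spans in the annotation used for the counts' symbols, and not at their first base. That of Meg3 lies before its span, and that of Dlk1 at the first base of its span. Of 2 RefSeq windows for Meg3, the one with the lower coordinates is shown. Meg3 lies at chr12:109540746-109541045, Dlk1 at chr12:109452573-109452872 and Dio3 at chr12:110278980-110279279, each on the plus strand. Capitals mark matches on either strand to CAGAC, the longer form of the Smad-binding box, to TGACGTCA, the cyclic AMP response element, and to TATAAA, the TATA box.
Meg3: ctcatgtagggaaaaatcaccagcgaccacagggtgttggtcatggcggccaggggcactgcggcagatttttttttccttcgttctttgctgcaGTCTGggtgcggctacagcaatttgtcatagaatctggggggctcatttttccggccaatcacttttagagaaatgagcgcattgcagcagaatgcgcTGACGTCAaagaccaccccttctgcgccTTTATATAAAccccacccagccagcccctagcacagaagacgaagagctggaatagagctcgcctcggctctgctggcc
Dlk1: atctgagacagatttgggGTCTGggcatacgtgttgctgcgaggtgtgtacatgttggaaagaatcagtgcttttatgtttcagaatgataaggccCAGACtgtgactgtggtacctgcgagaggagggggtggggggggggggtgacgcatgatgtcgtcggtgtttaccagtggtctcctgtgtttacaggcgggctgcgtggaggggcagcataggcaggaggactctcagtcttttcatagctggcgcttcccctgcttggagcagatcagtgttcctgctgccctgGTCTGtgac
Dio3: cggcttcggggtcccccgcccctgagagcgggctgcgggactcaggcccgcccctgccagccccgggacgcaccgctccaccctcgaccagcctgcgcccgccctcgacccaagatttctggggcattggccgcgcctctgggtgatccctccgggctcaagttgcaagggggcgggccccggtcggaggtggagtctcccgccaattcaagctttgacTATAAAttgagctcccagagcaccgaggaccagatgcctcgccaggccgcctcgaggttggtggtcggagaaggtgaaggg
The Meg3 window held 1 CAGAC match on the minus strand at -155, counted from the start, and the TGACGTCA match at -57. It also held 2 overlapping TATAAA matches, at -29 on the minus strand and -25 on the plus strand. The Dlk1 window held 3 CAGAC matches, at -232, -154 and 42, and neither other motif, and the Dio3 window held TATAAA at -31 alone. Of 32851 RefSeq promoter windows of this length, 49.6% held CAGAC, 13.6% TATAAA and 1.8% TGACGTCA. A match is a description of letters, and no binding was measured here. The Meg3 window had 13 CpG dinucleotides, that of Dlk1 9, that of Mirg 10, that of Dio3 25 and that of Rian 0.

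The maternal RNAs are best known for the small RNAs cut from them, so a few mature microRNAs of RefSeq are shown with their hosts, seed (bases 2 to 8) in capitals. These small RNAs were not analysed here, since only gene-level values of the long transcripts were used. Between Dlk1 and Dio3 the plus strand held 106 entries of mature microRNAs, of which 3 lay in Meg3, 6 in Rian, 26 in Mirg and 71 between the annotated hosts. Among them mmu-miR-3070-5p is entered at separate loci with the same sequence, and each entry was counted.
mmu-miR-770-5p, in Meg3: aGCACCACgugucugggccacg
mmu-miR-370-3p, in Rian: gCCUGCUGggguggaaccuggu
mmu-miR-134-5p, in Mirg: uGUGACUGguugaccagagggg
mmu-miR-410-3p, in Mirg: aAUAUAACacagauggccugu
mmu-miR-453, in Mirg: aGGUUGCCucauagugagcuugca
mmu-miR-496a-5p, in Mirg: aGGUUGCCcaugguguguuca
The last 2 of these share the seed GGUUGCC, and 16 of the 106 entries share a seed with a microRNA of another name in the interval.

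The libraries held 31566376 to 55806858 counts, and 46132635 or more in all but the lowest, S4KO day 4 replicate 2. Ribosomal-protein genes took 14.992% and 10.99% of the counts of the 2 WT day 0 libraries and 4.995% to 7.818% elsewhere, and mitochondrial genes 6.74% in S2/3DKO day 0 replicate 2 and 1.87% to 3.93% elsewhere. All 9 listed pluripotency markers were present at day 0, with summed levels of 7640 to 8800 CPM (the usual unit of counts scaled to library size) in WT, 3850 to 5140 in S2/3DKO and 5480 to 5880 in S4KO. The 10 fibroblast markers, which would show feeder cells, summed to 16 to 57.2 CPM over all libraries, with Dcn and Lum at 0 in each day 0 group. At day 0, trophoblast markers (10 listed) summed to 718 to 1110 CPM in S2/3DKO against 228 to 242 in WT, and extraembryonic endoderm markers (12 listed) to 334 to 389 CPM against 77.3 to 86.2. At day 4, the trophoblast markers summed to 2440 to 2930 CPM in S2/3DKO against at most 452 in WT. The extraembryonic endoderm markers then summed to 757 to 974 CPM in S2/3DKO and 162 to 237 in S4KO against 1120 to 1330 in WT. Primitive streak and mesoderm markers (9 listed) summed to 450 and 456 CPM in the WT day 4 libraries and at most 43.3 CPM in those of the knockouts. The transcripts of the targeted genes were still present in their knockouts (Smad2 37.8 to 48.3 CPM and Smad3 13.1 to 31.3 CPM in S2/3DKO, Smad4 79.6 to 144 CPM in S4KO), so whole-gene counts did not test the labels. Hprt stood at 169 to 212 CPM in the libraries labelled S4KO and at no more than 0.724 CPM in the others, and 4 Y-linked genes summed to at most 2.96 CPM in S2/3DKO and at least 74.1 CPM in WT and S4KO. Xist, the RNA of X inactivation, was at 33.2 to 115 CPM in S2/3DKO and at no more than 9.64 CPM in WT and 7.7 CPM in S4KO. Whether each knockout derives from the labelled line was not tested. Differences between the lines and the loss of the Smads cannot be told apart in the comparisons of genotypes. In these bulk libraries fewer cells that transcribe a gene and less RNA in each cell cannot be told apart either.

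Meg3 and Rian were abundant, Mirg was lower and Dlk1 was the lowest of the 4. On the FPKM scale, which divides by transcript length and so allows genes to be compared, the median over the 12 libraries was 91.3 for Meg3 (range 57.5 to 129), 125 for Rian (74.1 to 325), 13.3 for Mirg (3.85 to 27.7) and 1.02 for Dlk1 (0.297 to 1.52). Those medians exceeded 97.7%, 98.4%, 83.4% and 62.5% of all rows of the table. The maternal RNAs were thus present in every library of every genotype, and the paternal gene Dlk1 gave 31 to 148 counts per library.

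Each transcript was compared in 11 comparisons with edgeR's quasi-likelihood test, adjusted by the Benjamini-Hochberg method over all genes tested, and an adjusted p below 0.05 is termed a call. Of the 44 values, 2 were called, both of Rian. The WT change from day 0 to day 4 called 43.6% of all genes and 1 of the 4 members, and the difference between S2/3DKO and WT at day 4 called 15.2% of all genes and 1 of the 4. No member was called between the knockouts and WT at day 0, where 31% (S2/3DKO) and 19.6% (S4KO) of all genes were. The same held for day 4 against day 0 in S2/3DKO (7.03% of all genes) and S4KO (8.9%), for S4KO against WT at day 4 (1.73%), and for S4KO against S2/3DKO at day 0 (5.53%) and day 4 (12.3%). It held too for the terms that compare the day 4 change of S2/3DKO (6.1%) and S4KO (0.15%) with that of WT. At an unadjusted p below 0.05, 6 of the 44 member values passed, 5 of Rian and 1 of Meg3, the 2 calls included. The share of all genes passing at that threshold was not computed, so this count cannot be read as more than a description. Each of the 5 Rian values, the 2 calls included, draws on the same 2 WT day 4 libraries. They are therefore not separate observations.

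**Figure D1:**
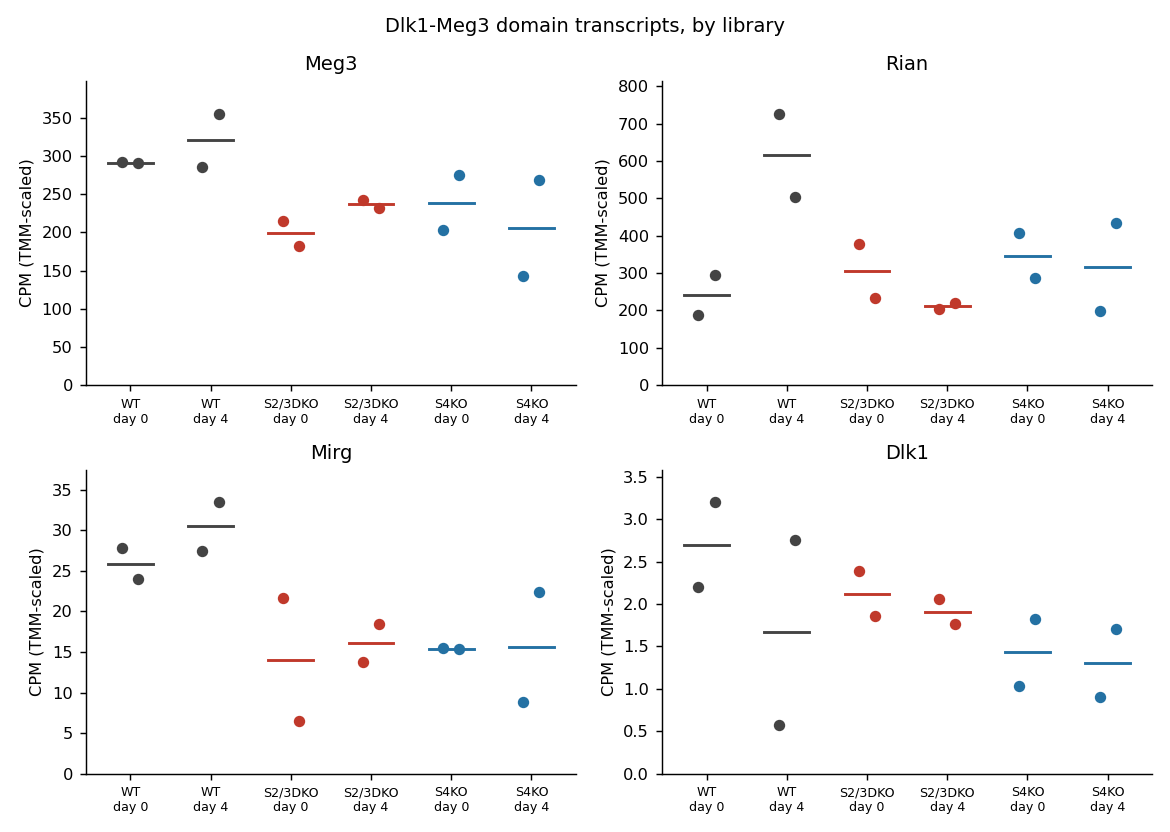
Levels of Meg3, Rian, Mirg and Dlk1 in each of the 12 libraries, in CPM on linear axes that start at 0. Points are libraries and lines are means of the 2 libraries of a group. The 2 WT day 4 libraries of Rian, at 726 and 503 CPM, lie above the other 10, and the 4 WT libraries of Meg3 and of Mirg lie above the 8 knockout libraries.

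Rian, the host of box C/D small nucleolar RNAs, rose in WT embryoid bodies and was lower in S2/3DKO than in WT embryoid bodies. Its WT level was 187 and 294 CPM at day 0 (240.3 ± 75.7, SD, n = 2) and 726 and 503 CPM at day 4 (615 ± 158). In S2/3DKO it was 376 and 232 CPM at day 0 and 203 and 219 CPM at day 4. In S4KO it was 406 and 286 CPM at day 0 and 197 and 433 CPM at day 4. Both WT day 4 libraries were above every other library, the next being S4KO day 4 replicate 2, and the libraries of the other 5 groups lay between 187 and 433 CPM. The WT rise had a log2 fold change of 1.35 ± 0.39 (SE, adjusted p = 0.0159, edgeR quasi-likelihood), and the lower level of S2/3DKO than WT at day 4 one of -1.54 ± 0.39 (adjusted p = 0.0219). In both comparisons the 2 groups did not overlap, and the share of all genes without overlap was not computed.

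The other Rian values were not called. At day 4 the libraries of S4KO and WT did not overlap, and the log2 fold change was -0.97 ± 0.38 (95% interval -1.81 to -0.12, adjusted p = 0.270 by edgeR). The change from day 0 to day 4 was -0.53 ± 0.38 in S2/3DKO and -0.14 ± 0.38 in S4KO. The term comparing the day 4 change of S2/3DKO with that of WT was -1.88 ± 0.54 (95% interval -3.08 to -0.69, adjusted p = 0.0609 by edgeR), and that for S4KO -1.49 ± 0.54 (adjusted p = 0.157). The S2/3DKO term was called by the DESeq2 Wald test (-1.86, adjusted p = 0.0126) and by limma on log2(FPKM + 1) (-1.94, adjusted p = 0.0383), and with length and GC offsets it was -0.45.

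The WT rise of Rian was not present once trends with exon length and GC content were removed from each library. With those offsets its log2 fold change was -0.24 (adjusted p = 0.574, edgeR quasi-likelihood), against 1.35 without them, and the split of all calls in this comparison moved from 54.5% to 39.9% higher, with the median of all genes moving from 0.083 to -0.116. The drop in S2/3DKO against WT at day 4 was called with the same offsets (-1.18), where the median of all genes was -0.03 in both fits. The WT rise also rested on single libraries: it was 1.06 without WT day 0 replicate 1 (adjusted p = 0.134) and 0.99 without WT day 4 replicate 1 (0.115). The drop in S2/3DKO at day 4 was -1.18 without WT day 4 replicate 1 (adjusted p = 0.126), -1.50 without S2/3DKO day 4 replicate 1 (0.132) and -1.62 without replicate 2 of that group (0.109).

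**Figure D2:**
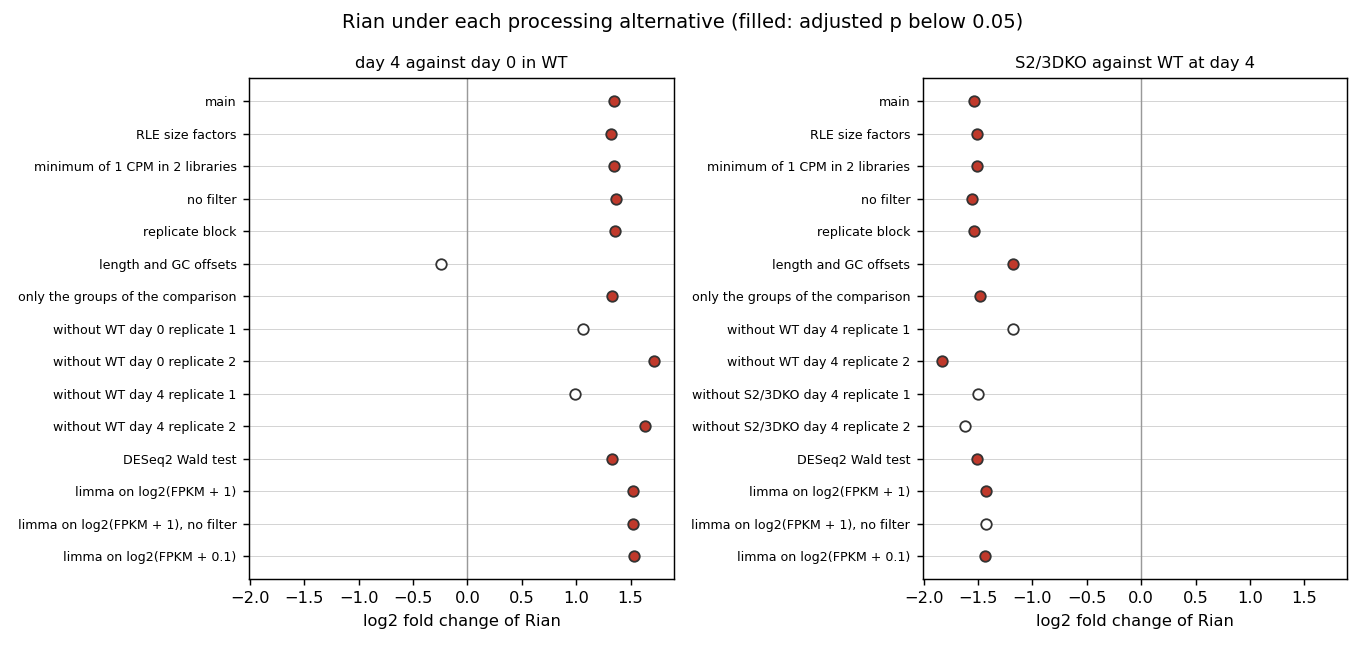
Log2 fold change of Rian in 2 comparisons under each processing alternative, 1 point per alternative, filled where the adjusted p was below 0.05. The WT change lies between 0.99 and 1.72 in all but the fit with length and GC offsets, where it is -0.24, and the S2/3DKO difference lies between -1.83 and -1.18 throughout.

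Meg3, the maternal RNA whose transcription starts nearest the differentially methylated region, ranged from 142 to 356 CPM. In WT it was at 293 and 290.3 CPM at day 0 (292 ± 1.71) and at 286 and 356 CPM at day 4 (321 ± 49.0). In S2/3DKO it was at 215 and 182 CPM at day 0 (199 ± 23.2) and 242 and 232 CPM at day 4 (237 ± 7.38). In S4KO it was at 203 and 275 CPM at day 0 (239 ± 51.1) and 142 and 268 CPM at day 4 (205 ± 89.1). In CPM all 8 knockout libraries lay below all 4 WT libraries, at either day, but no difference was called. In FPKM the libraries overlapped. There WT day 4 replicate 1 was at 86.8, below both S2/3DKO day 4 libraries (92.9 and 89.8). It was also below S4KO replicate 2 at day 0 (112.8) and day 4 (95.9). The log2 fold change of S2/3DKO against WT was -0.55 ± 0.28 at day 0 (adjusted p = 0.153, edgeR) and -0.44 ± 0.28 at day 4 (0.328), and that of S4KO -0.29 ± 0.28 at day 0 (0.5) and -0.65 ± 0.28 at day 4 (0.318). With length and GC offsets the day 0 value of S2/3DKO was -1.19 and was called (adjusted p = 0.0111). Between the days Meg3 differed by 0.14 ± 0.28 in WT, 0.26 ± 0.28 in S2/3DKO and -0.22 ± 0.28 in S4KO, none called.

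Mirg, whose annotated span held 26 of the 106 mature microRNA entries, stood well below Meg3 in level. In CPM it had the same order of WT and knockout libraries. It was at 27.8 and 24.0 CPM in WT day 0 and 27.5 and 33.4 CPM in WT day 4. The S2/3DKO libraries held 21.6 and 6.45 CPM at day 0 and 13.8 and 18.4 CPM at day 4, and those of S4KO 15.4 and 15.4 CPM at day 0 and 8.89 and 22.4 CPM at day 4. Again all 8 knockout libraries were below all 4 WT libraries. The share of all genes with such an order was not computed, so it is given for Meg3 and Mirg as a description. The lowest value, 6.45 CPM, came from S2/3DKO day 0 replicate 2, the library with 6.74% mitochondrial counts, whose part in the result was not tested. The 4 log2 fold changes against WT lay between -0.96 and -0.75, each ± 0.51, with adjusted p of 0.205 to 0.433 (edgeR quasi-likelihood). Without S2/3DKO day 0 replicate 1 the day 0 difference was -2.0 and was called (adjusted p = 0.0171), resting on the low library alone.

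Because Meg3 and Mirg stood lower in each knockout at both days, the difference averaged over the days was taken from the same fit, a comparison added after seeing the data. S2/3DKO against WT over both days called 34.5% of all genes and none of the 4 members, and S4KO against WT 14.6% and none. The averaged log2 fold change of Meg3 was -0.50 ± 0.20 in S2/3DKO (95% interval -0.93 to -0.06, adjusted p = 0.0728 by edgeR) and -0.47 ± 0.20 in S4KO (0.131). For Mirg it was -0.90 ± 0.36 in S2/3DKO (95% interval -1.69 to -0.12, adjusted p = 0.0714) and -0.86 ± 0.36 in S4KO (0.126). Rian gave -0.60 ± 0.27 in S2/3DKO (0.106) and -0.22 ± 0.27 in S4KO (0.616), and Dlk1 -0.07 ± 0.44 and -0.64 ± 0.45. The S2/3DKO values moved to the other side of the threshold with length and GC offsets, with -0.79 for Meg3, -0.96 for Rian and -1.09 for Mirg, and also with no filter on low counts.

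Dlk1, the paternally expressed Notch-ligand relative, was at a low level in every library. WT had 2.21 and 3.20 CPM at day 0 and 0.572 and 2.76 CPM at day 4. S2/3DKO had 2.39 and 1.86 CPM at day 0 and 2.06 and 1.76 CPM at day 4, and S4KO 1.04 and 1.82 CPM at day 0 and 0.906 and 1.71 CPM at day 4. The groups overlapped in most comparisons, and the WT day 4 pair alone spanned nearly the whole range. The largest of its 9 pairwise log2 fold changes was -0.92 ± 0.63 for S4KO against WT at day 0 (95% interval -2.30 to 0.46, adjusted p = 0.329, edgeR). Without WT day 4 replicate 2 the WT change between the days was -2.20 and was called (adjusted p = 0.0163), against -0.70 ± 0.63 with it.

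**Figure D3:**
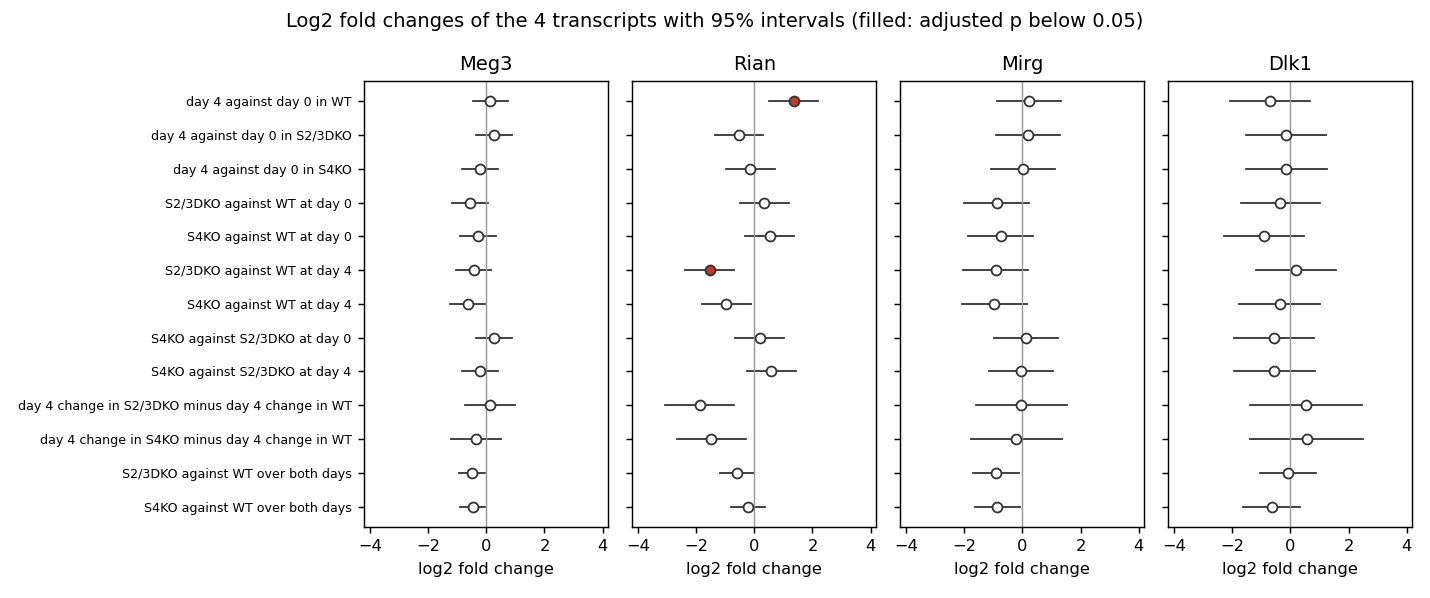
Log2 fold changes of the 4 transcripts in 13 comparisons with their 95% intervals, filled where the adjusted p was below 0.05. Of the 52 points, 2 are filled, both of Rian, and the intervals of Dlk1 are the widest.

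The maternal RNAs are often described as 1 long transcription unit, so their ratios within a library were taken from FPKM values. The ratio of Rian to Meg3 was 0.644 and 0.939 in WT day 0 and 3.74 and 1.87 in WT day 4. It was 2.03 and 1.48 in S2/3DKO day 0, 1.05 and 1.16 in S2/3DKO day 4, 2.13 and 1.14 in S4KO day 0, and 1.59 and 2.19 in S4KO day 4. In FPKM, WT day 0 was the single group in which Rian stood below Meg3 in both libraries. In CPM that group was S2/3DKO day 4 instead (Rian 203 and 219 CPM, Meg3 242 and 232 CPM). There WT day 0 replicate 2 had 293.9 CPM of Rian and 290.3 CPM of Meg3, so the order depended on the measure. The ratio of Mirg to Meg3 ran from 0.0526 in S2/3DKO day 0 replicate 2 to 0.245 in WT day 4 replicate 1. WT day 4 was highest at 0.245 and 0.224, and all 4 WT libraries lay at or above 0.138, against 0.172 or less in the 8 knockout libraries. The knockout and WT ranges of this second ratio overlapped. With length and GC offsets, the WT log2 fold change between the days was -0.24 for Rian and -0.75 for Meg3, against 1.35 and 0.14 without them, so the 2 transcripts lay closer together with the offsets.

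**Figure D4:**
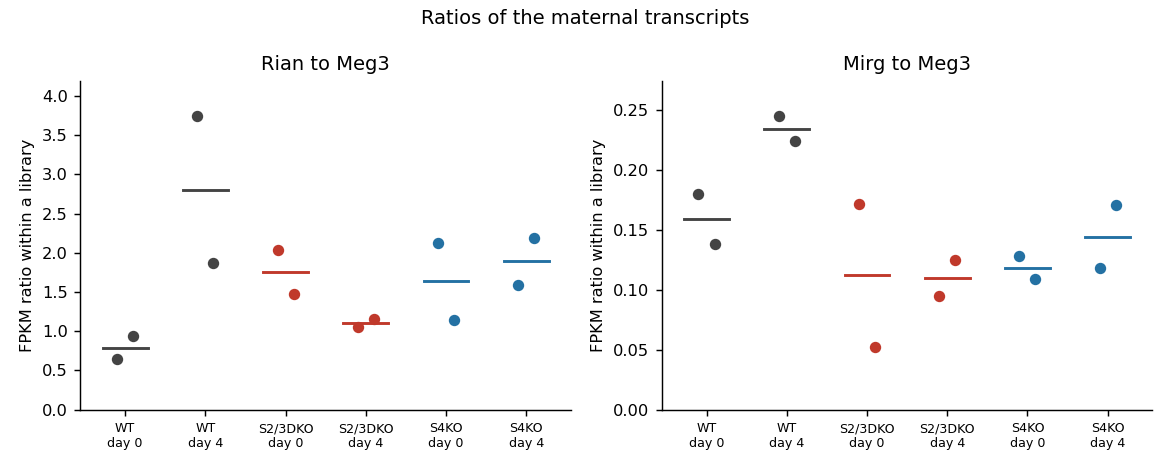
Ratios of FPKM within each library, Rian to Meg3 on the left and Mirg to Meg3 on the right, on linear axes that start at 0, with a point per library and a line at the mean of each group. The Rian ratio is below 1 in both WT day 0 libraries and above 1 in the other 10. This split holds for FPKM only: in CPM, Rian was below Meg3 in both S2/3DKO day 4 libraries and above it in WT day 0 replicate 2.

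Over the 12 libraries, which include all genotypes and days and share their scaling, Pearson's r of log2 CPM was 0.84 between Meg3 and Mirg, 0.53 between Rian and Mirg and 0.44 between Meg3 and Rian. Dlk1 gave 0.40 with Meg3, 0.22 with Mirg and -0.32 with Rian. Mirg was the third most alike of 10761 named genes to Meg3, after Rexo4 (0.859) and Ltb (0.855) and level with Bin3 (0.841). No gene of the domain was among the 4 most alike to the other members. Those of Rian were Fut10 (0.961), Samhd1 (0.943), Rab31 (0.923) and Gmps (0.915), those of Mirg Diablo (0.925), Trib1 (0.91), Ints9 (0.908) and Eef1akmt1 (0.9), and those of Dlk1 Srp68 (0.959), Chpf (0.936), Ppp1r37 (0.913) and Sympk (0.908). With 12 libraries and this many genes compared, such values are given as a description.

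The count table held 16 genes from Begain to Dio3, of which 10 were tested and 5 had no count in any library. Of the 12 that are no members, 6 were tested. Dio3 (ENSMUSG00000075707, 110279068 to 110281097, plus strand), the thyroid hormone deiodinase at the distal end, was at 2.01 and 2.53 CPM in WT day 0 and 0.793 and 0.594 CPM in WT day 4. In S2/3DKO it was at 6.92 and 4.71 CPM at day 0 and 20.0 and 28.4 CPM at day 4, and in S4KO at 1.47 and 1.49 CPM at day 0 and 0.434 and 0.311 CPM at day 4. The 4 S2/3DKO libraries were above the other 8, and day 4 was above day 0 in S2/3DKO and below it in WT and S4KO. Dio3 was higher in S2/3DKO than in WT by a log2 fold change of 5.12 ± 0.40 at day 4 (adjusted p = 4.33e-05, edgeR) and 1.35 ± 0.34 at day 0 (0.013). It rose between the days in S2/3DKO (2.06 ± 0.34, adjusted p = 0.00899) and fell in WT (-1.71 ± 0.36, 0.00333) and S4KO (-1.96 ± 0.38, 0.0118). The day 4 difference from WT held under every alternative run. The rise in S2/3DKO was lost without either S2/3DKO day 4 library (adjusted p = 0.0514 and 0.125), and the day 0 difference without either WT day 0 library or S2/3DKO day 0 replicate 1 (0.0511 to 0.124). The WT fall was lost with length and GC offsets (-0.76, adjusted p = 0.202) and with limma on log2(FPKM + 1) (-0.54, 0.0546, and 0.0972 unfiltered). The S4KO fall was lost without S4KO day 4 replicate 2 (-1.77, adjusted p = 0.108), with its groups alone (-2.0, 0.106) and with limma on log2(FPKM + 1) (-0.53, 0.14, and 0.205 unfiltered). The trophoblast markers given above stood highest in the same S2/3DKO day 4 libraries, and their part in the Dio3 level was not tested.

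Dio3os, transcribed from the minus strand beside Dio3 (110275385 to 110278172), gave 0 and 5 counts in WT day 4 and 94 and 121 counts in S2/3DKO day 4, a fitted log2 fold change of 5.24 ± 1.09 (adjusted p = 0.00904, edgeR). It did not pass when WT day 4 replicate 1 (adjusted p = 0.0501) or S2/3DKO day 4 replicate 2 (0.0601) was left out. Rtl1 (109589193 to 109600330, minus strand), a retrotransposon-derived paternal gene, was at 0.456 to 2.29 CPM and passed no comparison of the design, with its widest difference in S4KO against WT at day 0 (-1.41 ± 0.50, adjusted p = 0.0669, edgeR). Averaged over both days, a comparison added after seeing the data, Rtl1 was lower in S4KO than in WT (-1.27 ± 0.35, adjusted p = 0.0361, edgeR). That call was lost with its groups alone (-1.26, adjusted p = 0.0616). It was also lost when any 1 of 6 of the 8 libraries was left out (-1.64 to -1.03 over all 8). The exceptions were WT day 4 replicate 2 and S4KO day 0 replicate 1. The library kit named in the labels does not mark strand, so reads of Rtl1 and of the maternal antisense RNA cannot be told apart, and the same applies to other overlapping transcripts. Begain (109032187 to 109068217, minus strand), at the proximal edge, fell in WT from 5.76 ± 0.755 to 2.53 ± 1.13 CPM (-1.18 ± 0.40, adjusted p = 0.0312), a call lost with length and GC offsets (-0.68, adjusted p = 0.143) and without either WT day 0 library (0.0827 and 0.140) or WT day 4 replicate 1 (0.145). It was also lost with limma on log2(FPKM + 1) (-0.36, adjusted p = 0.2, and 0.294 unfiltered) and on log2(FPKM + 0.1) (-0.57, 0.211). Gm34081, an unnamed gene model of the interval, had 29 and 13 counts in S2/3DKO day 0. Both S2/3DKO day 4 libraries had 0 (adjusted p = 0.0425, edgeR). This call was lost with its groups alone (adjusted p = 0.0514) and with a replicate block (0.0548). It was also lost without S2/3DKO day 0 replicate 1 or either S2/3DKO day 4 library.

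**Figure D5:**
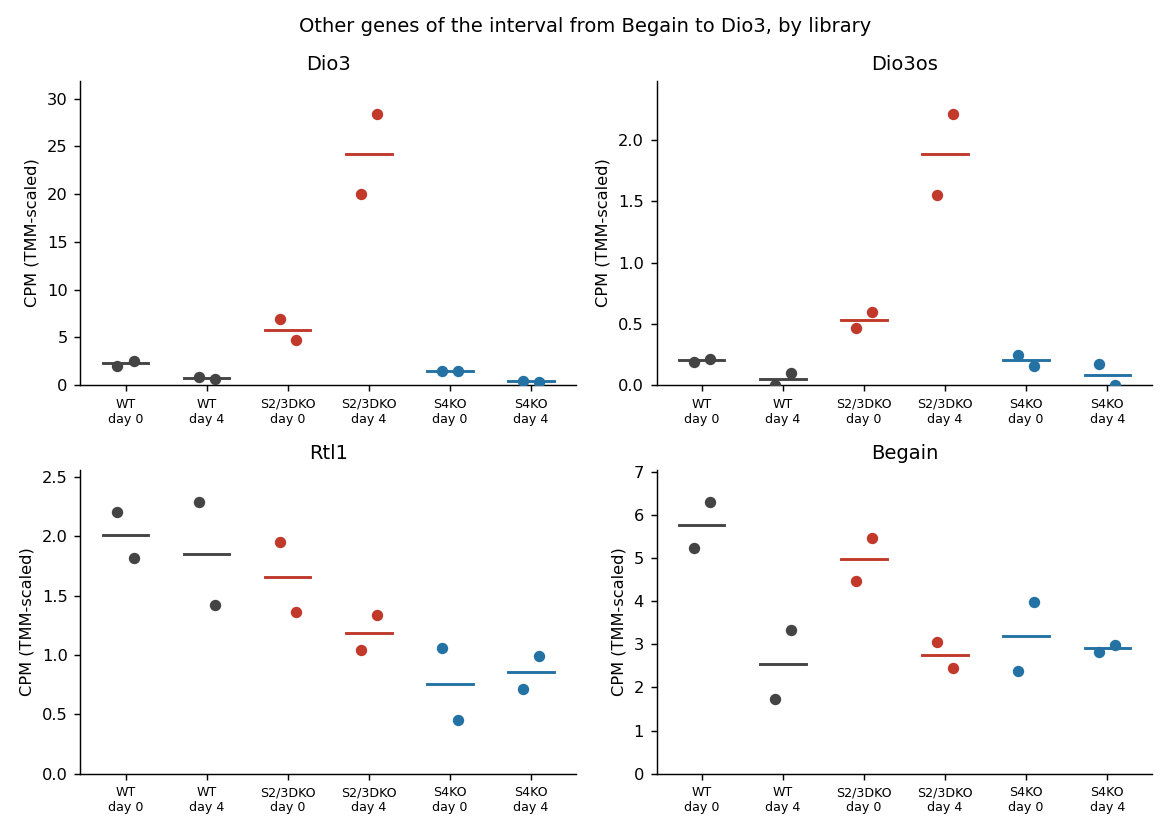
Levels of Dio3, Dio3os, Rtl1 and Begain in each library in CPM, on linear axes that start at 0, with points for libraries and lines for group means. Dio3 reaches 20.0 and 28.4 CPM in S2/3DKO day 4 and stays at or below 6.92 CPM elsewhere.

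The 11 genes listed outside the interval held 2 that rose and 2 that fell in WT between the days (median log2 fold change -0.62, all genes 0.08), and none in either knockout, where 43.6% of all genes were called in WT, 7.03% in S2/3DKO and 8.9% in S4KO. Ppp2r5c, a phosphatase subunit on the distal side, fell from 320 ± 20.5 to 160 ± 10.4 CPM in WT (-1.0 ± 0.19, adjusted p = 0.00195, edgeR). Against WT, 2 of the 11 were lower in S2/3DKO and 1 in S4KO at day 0 (31% and 19.6% of all genes called), and none was called at day 4 (15.2% and 1.73%).

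Of 19 genes that set, keep or remove imprints, 8 rose and 6 fell in WT between the days (median 0.02, all genes 0.08), 0 rose and 2 fell in S2/3DKO (median -0.36, all genes 0.02), and 3 rose and 1 fell in S4KO (median -0.24, all genes 0.02). The shares of all genes called were 43.6%, 7.03% and 8.9%. Zfp57, which protects imprint methylation, fell in WT from 324 ± 8.58 to 49.5 ± 4.99 CPM (-2.71 ± 0.35, adjusted p = 0.000344, edgeR). Dnmt3b, a de novo DNA methyltransferase, rose from 243 ± 25.2 to 1477 ± 113 CPM (2.60 ± 0.50, 0.00217), and Dnmt3l, its catalytically inactive cofactor, fell from 437 ± 30.4 to 88.6 ± 18.6 CPM (-2.30 ± 0.31, 0.000416). Aff3, a nuclear factor known to bind imprinted control regions, rose from 4.77 ± 0.235 to 32.02 ± 2.27 CPM (2.75 ± 0.35, 0.000327). These 4 WT calls held under every alternative run.

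At day 4, 3 of the 19 were higher and 3 lower in S2/3DKO than in WT (median -0.20, all genes -0.03), and 1 was higher in S4KO (median 0.10, all genes -0.03), where 15.2% and 1.73% of all genes were called. Dnmt3b was at 220 ± 0.785 CPM in S2/3DKO against 1477 ± 113 in WT (-2.74 ± 0.50, adjusted p = 0.00483, edgeR), and Aff3 at 5.48 ± 0.158 against 32.02 ± 2.27 (-2.55 ± 0.34, 0.000958). At day 0, 4 were higher and 0 lower in S2/3DKO than in WT (median 0.09, all genes 0.02, 31% of all genes called), and 4 higher and 1 lower in S4KO (median 0.24, all genes 0.01, 19.6%). The 4 S2/3DKO calls, of Setdb1, Suz12, Tet3 and Zfp445, which were named after their values were seen, were each lost without WT day 0 replicate 1 (adjusted p of 0.265, 0.063, 0.101 and 0.107).

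Of 21 imprinted genes outside the domain, 13 were higher and 2 lower in S2/3DKO than in WT at day 0 (median 1.73, all genes 0.02), and 12 higher and 2 lower at day 4 (median 1.71, all genes -0.03). Of all genes, 31% and 15.2% were called in these comparisons. Trophoblast markers moved with these groups, 8 of 10 higher at day 0 (median 2.78) and 9 of 10 at day 4 (median 4.19). Of 12 extraembryonic endoderm markers, 8 were higher at day 0 (median 2.50), but 0 were higher and 5 lower at day 4 (median -1.49). The part of these markers in the imprinted genes was not tested. In S4KO against WT, 6 were higher and 2 lower at day 0 (median -0.05, all genes 0.01), and 3 higher and 0 lower at day 4 (median 0.08, all genes -0.03), with 19.6% and 1.73% of all genes called. H19, a maternally expressed RNA, was at 7992 ± 1183 CPM in S2/3DKO and 92.1 ± 17.1 CPM in WT at day 4 (6.44 ± 0.46, adjusted p = 4.06e-05, edgeR). Its neighbour Igf2, a fetal growth factor, was at 1267 ± 139 CPM in S2/3DKO and 49.0 ± 1.03 CPM in WT at day 4 (4.69 ± 0.48, adjusted p = 0.000199, edgeR). Plagl1, a zinc finger factor, was at 33.99 ± 2.65 CPM in S2/3DKO and 16.9 ± 0.251 CPM in S4KO against 1.41 ± 0.0915 CPM in WT (4.59 ± 0.46, 0.000185, and 3.58 ± 0.44, 0.0031). Mest, an imprinted hydrolase gene, had 152 ± 22.4 CPM in S4KO and 18.6 ± 0.969 in WT (3.03 ± 0.34, 0.00156). In WT between the days 12 rose and 2 fell (median 1.10, all genes 0.08, 43.6% of all genes called), Peg3 among them with 43.5 ± 3.75 and 257 ± 39.7 CPM (2.56 ± 0.40, 0.000746).

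Of 16 genes of the Notch pathway, to which Dlk1 is related, 5 rose and 1 fell in WT between the days (median 0.31, all genes 0.08), 1 rose in S2/3DKO and 2 rose in S4KO, beside 43.6%, 7.03% and 8.9% of all genes called. The receptor Notch2 rose from 18.5 ± 0.0472 to 98.1 ± 12.5 CPM in WT (2.40 ± 0.29, adjusted p = 0.000279, edgeR). Against WT at day 4, 0 were higher and 2 lower in S2/3DKO (15.2% of all genes called), and none was called in S4KO (1.73%). The lower genes were the ligand Dll3 (0.967 ± 0.408 against 8.69 ± 5.02 CPM, -3.16 ± 0.60, 0.00576) and the target Hes1 (11.1 ± 2.23 against 37.8 ± 0.0740 CPM, -1.76 ± 0.41, 0.0154). Both calls were lost when S2/3DKO day 4 replicate 2 was left out (adjusted p = 0.0607 for Dll3 and 0.124 for Hes1), and that of Hes1 also without WT day 4 replicate 1 (0.0552) or S2/3DKO day 4 replicate 1 (0.0639).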

How the data were processed

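RNA libraries had been made from 500 ng of total RNA (RNA integrity number above 9.5), per the labels' protocols. The authors deposited a table of gene counts and a table of FPKM values (fragments scaled by transcript length and by library size) over the same 12 libraries. The submitters' processing notes name mm10, Cufflinks, StringTie and DESeq2, with no version, and the strand setting of the counting was not given in the sources used here. GENCODE M21 gave a symbol for 32235 of the 32285 gene IDs.

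Counts were fitted over all 6 groups together with edgeR 4.0.16 in R 4.3.3 (filterByExpr, TMM scaling, quasi-likelihood test), which left 18693 genes and a common biological coefficient of variation of 0.286. All p-values were adjusted by the Benjamini-Hochberg method over these genes, and levels are TMM-scaled CPM. Alternatives were RLE scaling, other filters, length and GC offsets (18682 genes), each comparison's groups alone, a replicate block, DESeq2 1.42.0, limma 3.58.1 on log2(FPKM + 1) and log2(FPKM + 0.1), and leaving out each library. Plots used matplotlib 3.10.9.

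The members and gene lists were chosen with earlier results of these data known, and the comparisons over both days were added after seeing the data. In each list, genes to name were drawn from the called members with the largest log2 fold changes and a mean of at least 5 CPM in the higher group. Likeness was Pearson's r of log2 CPM (prior count 2) among genes with an established name and a mean of at least 5 CPM.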

Additional observations from a re-analysis of the deposited data

Results flagged for a closer look

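Dio3 was singled out because its change between the days differed between genotypes. The day 4 change in S2/3DKO minus that in WT was 3.77 ± 0.49 on the log2 scale (adjusted p = 0.00763, edgeR quasi-likelihood), with both S2/3DKO libraries higher at day 4 and both WT libraries lower. Without S2/3DKO day 4 replicate 2 it was 3.45 (adjusted p = 0.0522).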

How the results depend on the processing

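The 792 recomputed values of the 4 members kept direction and side of the threshold in 693 cases. In 25 a value moved past the threshold, in 6 a call was lost, and in 68 the sign changed, 67 of them with neither value called and none of those larger than 1.13. The cause was not tested.

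The number of members called went from 1 to 0 in the WT change between the days with length and GC offsets, and from 1 to 0 in S2/3DKO against WT at day 4 with limma on unfiltered log2(FPKM + 1). It went from 0 to 1 in S2/3DKO against WT at day 0 with the offsets, and from 0 to 1 in the S4KO day 4 term with no filter. The S2/3DKO day 4 term gave 1 in place of 0 with a 1 CPM filter, no filter, its groups alone, DESeq2 and limma with either pseudocount. Over both days S2/3DKO gave 3 with no filter and 3 with offsets, and 1 with its groups alone, DESeq2 and limma with either pseudocount. S4KO gave 1 with no filter and 1 with offsets. Leaving out 1 library gave 0 to 2 in the WT change, and 0 to 1 in S2/3DKO against WT at each day and over both days, in the S2/3DKO term, and in S4KO over both days.

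With length and GC offsets the sign changed for Meg3 in the WT change (-0.75) and the S4KO term (0.14), and for Rian in the WT change (-0.24) and in S2/3DKO (-0.73) and S4KO (-0.37) against WT at day 0. It also changed for Mirg in the WT change (-0.25), the S4KO change (-0.20), S4KO against S2/3DKO at day 4 (0.01), the S2/3DKO term (0.29) and the S4KO term (0.05). With limma, Meg3 in the WT change was -0.23 in all 3 fits, and Mirg in S4KO against S2/3DKO at day 4 was 0.09. The Mirg S4KO change was -0.01 with RLE and DESeq2, -0.02 with a 1 CPM filter or its groups alone, -0.05 with no filter, and -0.07 and -0.08 with limma. The Mirg S2/3DKO term was 0.01 with RLE and DESeq2, and 0.03 and 0.08 with limma. Dlk1 in S2/3DKO over both days was 0.07 and 0.23 with limma.

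Leaving out 1 library, Meg3 ran from -0.76 to 0.11 in the S4KO change, -0.74 to 0.12 in S4KO against S2/3DKO at day 4 and -0.83 to 0.03 in the S4KO term. Rian ran from -0.83 to 0.25 in the S4KO change, -0.04 to 0.70 in S2/3DKO against WT at day 0, -0.13 to 0.57 and -0.10 to 0.98 in S4KO against S2/3DKO at day 0 and day 4, and -0.54 to 0.01 in S4KO over both days. Mirg ran from -0.44 to 1.30 in the S2/3DKO change, -0.80 to 0.48 in the S4KO change, -0.50 to 1.24 and -0.86 to 0.42 in S4KO against S2/3DKO at day 0 and day 4, and -0.65 to 1.13 and -0.98 to 0.31 in the S2/3DKO and S4KO terms. Dlk1 ran from -0.33 to 0.02 in the S2/3DKO change, -0.66 to 0.26 in the S4KO change, -0.46 to 1.69 and -1.05 to 1.10 in S2/3DKO and S4KO against WT at day 4, -0.11 to 2.02 and -0.13 to 2.01 in their terms, and -0.40 to 0.68 and -0.99 to 0.09 over both days. Where an arm kept 1 library, it was assumed to vary like the other groups.

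Samples of the same replicate number did not deviate together throughout (r of -0.147 to 0.339 between groups), so the labels' numbers were not taken to pair them. With a replicate block the Rian values were 1.36 in the WT change and -1.54 in S2/3DKO against WT at day 4, both called, no call of a member changed, and Dlk1 in S2/3DKO over both days was 0.08. Dlk1 had 31 to 148 counts per library, which limits the precision of its values.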
